A study of Mus musculus with 8 samples.

Results

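The Hist1 histone genes are the replication-dependent histone genes of mouse chromosome 13. Members were all genes whose GENCODE vM21 symbol starts with Hist1h, which gave 56 of 55413 annotated genes. RefSeq now lists the same genes under other symbols (Hist1h2ba as H2bc1, Hist1h2aa as H2ac1 and Hist1h1t as H1f6), so that 0 RefSeq symbols start with Hist1h. Of the members, 6 encode H1, 15 H2a, 15 H2b, 9 H3 and 11 H4, and 2 of the H2a members, Hist1h2aj and Hist1h2al, are annotated as pseudogenes. They lie in 5 places on mm10, of 19, 5, 29, 2 and 1 genes. The 19 lie at chr13:21715763-21837530, the 5 at chr13:22035164-22043676 and the 29 at chr13:23531050-23764406. The pair Hist1h2ba and Hist1h2aa lies at chr13:23933773-23934851, and Hist1h2al stands alone at chr13:51202727-51203065. The window of a gene ran from 1 kb upstream of its start to 500 bases past its end, and the windows together held 750 of the 2130064 cytosines used.

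DNA methylation was measured by reduced representation bisulfite sequencing (RRBS) in cells labelled type A spermatogonia, in 4 control and 4 arsenic samples. The dams were C3H/HeN mice given plain tap water (control) or, between gestational days 8 and 18, tap water holding sodium arsenite at 85 ppm (arsenic), and the cells came from their F1 male offspring at postnatal day 6. They were isolated with magnetic beads and an antibody to CD49f (Itga6), a surface integrin that is not restricted to germ cells, and 8 testes of 4 mice were pooled for each sample. How litters were divided over the pools is not given in the sources used here. P-values computed from the spread between samples measure the spread between these pools. Those of the logistic regression at single cytosines measure the counting error of reads only. Both groups were of the same strain.

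Histones are the proteins around which DNA is wound. H2a, H2b, H3 and H4 form the core particle, and H1 binds the linker DNA that enters and leaves it. Replication-dependent histone genes are transcribed mainly in S phase, mostly lack introns, and give mRNAs that end in a conserved stem-loop in place of a poly(A) tail. Genes of the cluster are often arranged head to head as H2a and H2b pairs that share a short promoter region. Hist1h2ba encodes TH2B and Hist1h2aa encodes TH2A, the testis forms of H2b and H2a, and Hist1h1t encodes H1t, the linker histone of pachytene spermatocytes. These testis variants were compared with the other members.

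The following stretches show the sequence behind this comparison. They were read from the GRCm38 (mm10) assembly, plus strand, and capitals mark each CpG at which at least 1 cytosine was read in all 8 samples. The first covers 300 bases, nearly all, of the space between Hist1h2ba, which runs to the left, and Hist1h2aa, which runs to the right (chr13:23934157-23934456). Of its 8 CpGs 7 were read, at a mean methylation level of 87.0%. The second is the space between the pseudogene Hist1h2aj, to the left, and Hist1h2bm, to the right (chr13:21721809-21722043). It is shorter, with 6 CpGs, of which 2 were read, at 1.04%. The third is the 250 bases before and 50 bases from the start of Hist1h1t (chr13:23695564-23695863), where 0 of 10 CpGs were read.
Hist1h2ba-Hist1h2aa: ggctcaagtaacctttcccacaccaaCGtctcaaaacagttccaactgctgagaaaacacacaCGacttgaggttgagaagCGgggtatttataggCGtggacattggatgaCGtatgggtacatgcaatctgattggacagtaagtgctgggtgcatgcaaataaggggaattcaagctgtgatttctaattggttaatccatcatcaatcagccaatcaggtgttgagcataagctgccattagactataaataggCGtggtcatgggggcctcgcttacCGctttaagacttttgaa
Hist1h2aj-Hist1h2bm: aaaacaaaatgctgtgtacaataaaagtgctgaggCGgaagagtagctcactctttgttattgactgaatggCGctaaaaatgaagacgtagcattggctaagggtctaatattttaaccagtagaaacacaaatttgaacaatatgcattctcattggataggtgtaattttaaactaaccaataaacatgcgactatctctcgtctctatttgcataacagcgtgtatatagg
Hist1h1t: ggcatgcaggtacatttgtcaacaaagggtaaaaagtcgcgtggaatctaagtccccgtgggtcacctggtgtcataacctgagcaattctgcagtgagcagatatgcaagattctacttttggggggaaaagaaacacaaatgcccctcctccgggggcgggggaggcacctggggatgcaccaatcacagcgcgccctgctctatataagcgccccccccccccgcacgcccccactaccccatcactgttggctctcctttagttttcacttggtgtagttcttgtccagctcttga

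The testis genes resembled the others in the sequence that defines the class. The histone stem-loop was found within 100 bases past the coding end in 53 of 54 protein-coding members (98.1%) and in 67 of 21938 protein-coding genes of the annotation (0.305%). Hist1h2an was the protein-coding member without it. The most frequent form, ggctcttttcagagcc, was present in 33 members, among them Hist1h2aa. Hist1h2ba and Hist1h1t had the form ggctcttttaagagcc, which 8 members share. In the RefSeq promoter set (250 bases before to 50 after each gene start, GRCm38.p6), 51 members were matched. On either strand, CCAAT was present in 43 of 51 member promoters and 37.9% of all 27025 promoters, and TATAAA in 31 of 51 and 14.2%. The promoters of Hist1h2ba, Hist1h2aa and Hist1h1t all held CCAAT, and those of the first pair also held TATAAA. The octamer ATTTGCAT was found in 10 of 51 member promoters against 1.75% of all, including both genes of the testis pair, whose promoter windows overlap. TTTCGCGC, a form of the E2F site that contains CpGs, was found in 9 of 51 and 0.318%, and TTTGGCGC in 0 of 51 and 0.537%. TGACGTCA, the cyclic AMP response element, was found in 4 of 51 and 1.88%. The testis promoters lay below the member median in CpG content. The ratio of observed to expected CpGs was 0.455 for Hist1h2ba, 0.549 for Hist1h2aa and 0.450 for Hist1h1t, against a median of 0.758 over the member promoters and 0.389 over all promoters.

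Each sample had 96428439 to 133406260 reads on the cytosines used, at a median coverage of 31 to 44 reads. At the member cytosines the median was 32 reads and the range 10 to 248. The labelled cell type was checked at promoters of marker genes. The promoters of 12 genes used in germ cells, which are known to be unmethylated there and methylated in somatic cells, averaged 83.3% (80.6 to 85.8% between samples), and 12 of 12 were above 50%, from Tdrd1 at 60.2% to Dazl at 95.1%. Promoters of 7 maternally imprinted genes averaged 52.0% (47.8 to 59.3% between samples), from Inpp5f at 20.9% to Mcts2 at 62.5%. The imprinted regions of such genes are unmethylated in male germ cells and methylated on the maternal allele elsewhere. Whether each promoter window holds the imprinted region, or shares it with another listed gene, was not checked. The 5 Sertoli cell promoters read averaged 7.92%, from Sox9 at 1.11% to Fshr at 28.2%, and Myh11, the only promoter read from the Leydig and peritubular list, was at 1.80%. Over all 10028 protein-coding promoters read, the mean was 12.4% and the median 1.79%, so that low levels at the somatic markers do not set them apart from other promoters. The germline and imprinted promoters thus went against the label for the bulk of the DNA. Both lists held 14 genes, and only those with at least 3 promoter cytosines were used. For the label, the study reported higher Itga6 and Gfra1 mRNA in these cells than in its prospermatogonia fraction. It also reported methylation profiles that separated by stage. The controls and arsenic samples overlapped in all 4 lists. The share of each cell type was not measured, and the part of other cells in the levels given here was not tested.

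Hist1h2ba and Hist1h2aa were methylated, and most other Hist1 windows were not. The genes of this pair lie head to head, and both windows held the same 52 cytosines, so that they count as a single measurement. Their mean level was 88.8%, and 45 of 52 cytosines were above 80% and 0 below 5%. The control samples were at 82.9, 85.8, 91.4 and 91.5% and the arsenic samples at 92.9, 91.2, 87.7 and 86.8%. The 698 cytosines of the other members averaged 8.43%, and 566 of them were below 5%. The pair exceeded the others in every sample, by 74.6 to 84.7 percentage points, with 79.5 ± 4.26 (SD, n = 4) in the control and 81.2 ± 2.78 (SD, n = 4) in the arsenic samples. This difference was much larger than the spread between pools. The germline marker promoters were at 80.6 to 85.8% in the same samples, a level close to that of the pair, and the part of other cells in the level of the pair was not tested. Restricting each window to the surroundings of the coding sequence (1 kb upstream of the coding start to 500 bases past its end, hereafter the coding-anchored window) raised the difference to 86.7 points, because the other members then averaged 2.07% over 618 cytosines.

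**Figure D1:**
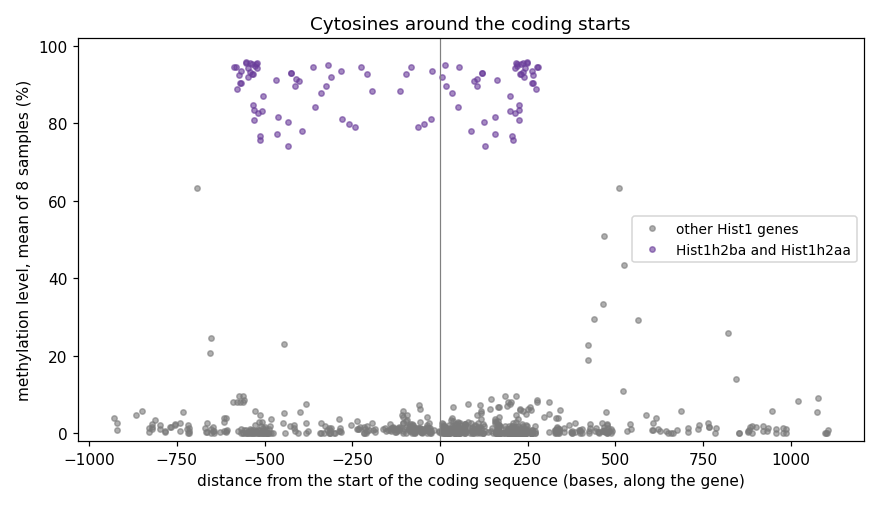
Methylation level of each cytosine (mean of 8 samples, %) against its distance from the start of the coding sequence in bases, for the Hist1h2ba and Hist1h2aa pair and for the other Hist1 genes, in coding-anchored windows. A cytosine near several genes is drawn once for each. The cytosines of the pair lie between 74.2 and 95.8%, and those of the other genes lie mostly near 0.

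Past the coding start, in the first 500 bases, the pair had 45 cytosines at 89.1% and the other genes 418 at 1.58%. Upstream of the start, the other genes had 158 cytosines at 1.44% in the nearest 500 bases and 96 at 2.66% in the next 500. For the pair, upstream of either gene means mostly the body of its partner, that is, the same cytosines again, and 7 cytosines, at 87.0%, lay between the genes. The plot of level against distance from the coding start shows 2 bands with few cytosines between them, and the highest cytosine of the other genes in these windows reached 63.3%.

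Within the pair, the gene body of Hist1h2ba was the most methylated stretch. Its 27 cytosines averaged 92.3%, all above 80%. The 7 cytosines between the genes averaged 87.0%, from 79.1 to 94.4%, and the 18 in the body of Hist1h2aa averaged 84.2%, from 74.2 to 93.0%. In the body of Hist1h2aa the control samples were at 77.6, 76.8, 86.8 and 91.3% and the arsenic samples at 88.8, 84.98, 80.5 and 86.7%. Control sample 4 was the highest and control sample 2 the lowest, so that the arsenic samples lay inside the control range. At the 17 CpGs read on both strands, the plus strand averaged 90.5% and the minus strand 87.6%. In 6 samples both strands differed by at most 3.55 points, but in control sample 1 the plus strand was 14.5 points higher and in arsenic sample 4 it was 12.3 points higher. The minus strand of the Hist1h2ba body was at 82.5% in control sample 1 and 78.7% in arsenic sample 4, and at 92.3 to 97.0% in the other samples. Methylation of a CpG is usually alike on both strands, and what caused these gaps was not tested. In 13 of the 52 cytosines the bisulfite-converted 51 bases around the cytosine also occur in another histone window; these averaged 93.1% and the other 39 averaged 87.3%.

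**Figure D2:**
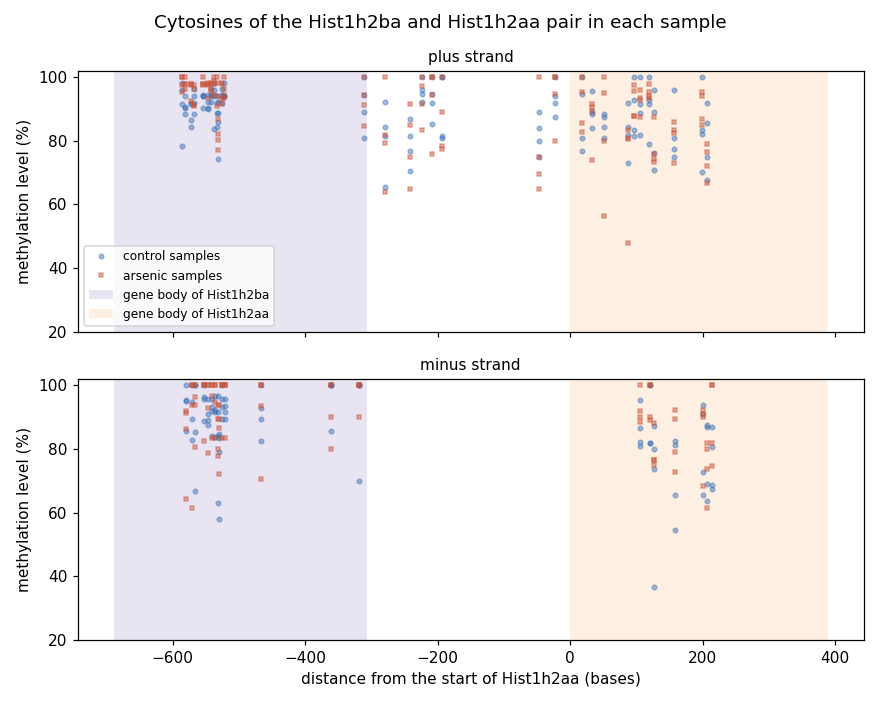
Methylation level (%) of the 52 cytosines of Hist1h2ba and Hist1h2aa in each of the 8 samples against distance from the start of Hist1h2aa in bases, with the plus strand above and the minus strand below; the axis starts at 20%. Most values are above 80% in both groups, and the control and arsenic samples intermingle.

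The sequence around the pair was also methylated. Within 50 kb of its window, 54 cytosines on the lower-coordinate side averaged 70.7% and 45 on the other side 80.7%, the nearest 1539 and 13366 bases away. Between the genes of the 3 large groups of members, outside all windows, 76 cytosines averaged 70.0%, so that the unmethylated Hist1 windows lay in methylated surroundings. All cytosines of chromosome 13 averaged 54.8%.

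Hist1h1t could not be placed. Its window has 100 cytosines in CpGs and 3 CCGG sites, where MspI cuts, and 0 of them were read in all 8 samples. The nearest read cytosines lay 4112 bases upstream of the gene, at 90.6% in the far end of Hist1h2bc, and 1606 bases past its end, at 1.31% near Hist1h4c. No 51 bases around its CpGs are shared with another histone window. The 2 testis-specific H1 genes outside the cluster that could be read were methylated. Hils1, a linker histone of spermatids, was at 84.5 to 92.2% over 16 cytosines, and H1fnt, another spermatid H1, at 72.6 to 79.7% over 28 cytosines.

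Among all members, 36 had at least 1 cytosine and 33 at least 5. Of these 33 windows, 27 were below 5% and 2, those of the testis pair, above 80%, with a median of 1.49%. Over all 27709 gene windows with at least 5 cytosines, 13.1% were below 5% and 18.97% above 80%, with a median of 49.99%. Windows run over whole genes and most Hist1 genes are short, so these shares do not compare like with like. Over the 10028 protein-coding promoters read, the median was 1.79%, close to that of the member windows. Because of head-to-head pairs, the 33 windows represent 27 different sets of cytosines.

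**Figure D3:**
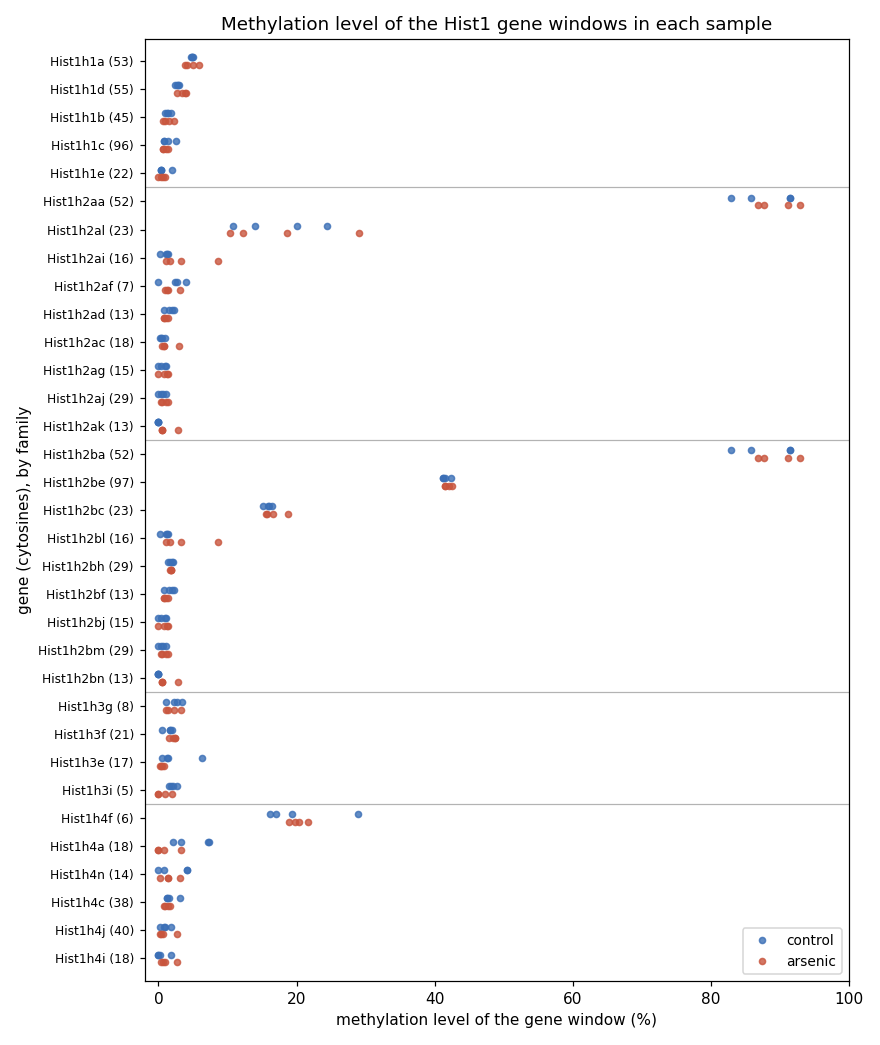
Methylation level (%) of the 33 Hist1 gene windows with at least 5 cytosines, grouped by family, with the number of cytosines after each name and 1 point per sample. Hist1h2ba and Hist1h2aa lie above 80%, Hist1h2be lies near 42%, and 27 windows lie below 5%.

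The H1 genes were low throughout. All 5 that were read, Hist1h1a to Hist1h1e, were below 5%, with a median of 1.32%, and Hist1h1c, with the most cytosines after Hist1h2be (96), was at 1.17%. Hist1h1e was the lowest of them at 0.598%, with 0.364, 0.325, 0.303 and 1.92% in the control and 0, 0.964, 0.587 and 0.313% in the arsenic samples. Control sample 4 was above the others, and the groups overlapped. Hist1h1a was the highest at 4.78%, with 5.04, 4.66, 4.85 and 4.88% in the control and 4.98, 5.83, 3.87 and 4.16% in the arsenic samples. Its level came from 8 cytosines past the gene end, at 27.1%, while the 45 in its upstream part and body averaged 0.811%. In Hist1h1d the 52 cytosines of the body averaged 1.21% and 3 upstream cytosines 36.2%.

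Of the 8 H2a windows without the testis gene, 7 were below 5%, with a median of 1.09%. The exception was the pseudogene Hist1h2al, which lies far from the cluster on the same chromosome, at 17.4%. Its control samples were at 10.7, 24.4, 14.0 and 20.1% and its arsenic samples at 10.3, 29.1, 12.2 and 18.7%. The 15 cytosines in its body fell into separate levels, 0.606 to 2.50% in control and arsenic samples 1 and 3 and 11.2 to 15.8% in control and arsenic samples 2 and 4, over 10 to 30 reads each. Neighbouring cytosines share reads, so that these are not independent values. Hist1h2ak was the lowest, at 0.555%, and shared its 13 cytosines with Hist1h2bn.

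The H2b windows had the widest range. Without Hist1h2ba, 6 of 8 were below 5%, with a median of 1.55%. Hist1h2be was at 41.7% over 97 cytosines, with 41.2, 41.5, 42.3 and 41.2% in the control and 42.1, 42.6, 41.5 and 41.5% in the arsenic samples, a narrow range. Hist1h2bc was at 16.2% over 23 cytosines, with 16.4, 15.8, 16.01 and 15.1% in the control and 15.7, 18.8, 15.5 and 16.6% in the arsenic samples. Both are annotated as long genes, spanning 37455 and 8710 bases of the genome, and their high cytosines lay far from the coding sequence. Near the coding start, 18 cytosines of Hist1h2bc were at 0.868%, and 5 cytosines over 7 kb past it were at 71.6%.

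In the coding-anchored window of Hist1h2be, 32 cytosines averaged 0.727%, and all were below 5%. Between 5 and 5.8 kb upstream, 11 cytosines averaged 93.1%, all above 80%. Between 5.8 and 6.5 kb, 26 cytosines fell to an intermediate level, 25.3%, from 10.7 to 52.8%. Beyond, from 6.5 to 8 kb, 16 cytosines were at 84.3%, and from 16 to 17 kb 12 were at 82.8%. The intermediate stretch was at 24.7, 23.3, 27.5 and 19.7% in the control and 26.3, 26.0, 28.9 and 26.2% in the arsenic samples. The arsenic mean was 3.03 points higher, and the groups overlapped. From 6.5 to 8 kb the difference went the other way, at -3.18 points, and the groups overlapped there as well.

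**Figure D4:**
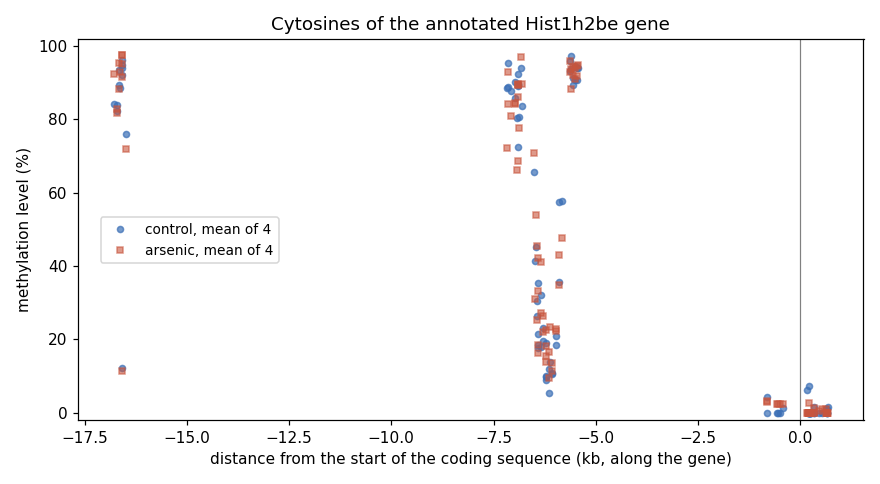
Methylation level (%) of the 97 cytosines of Hist1h2be against distance from the coding start in kb, as control and arsenic means of 4 samples. The level is near 0 around the coding start, near 93% at 5 to 5.8 kb upstream and lower, 25.3% on average, in the stretch beyond it.

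The H3 and H4 genes were low, with 1 exception. All 4 H3 windows were below 5%, with a median of 1.59%; Hist1h3f, with 21 cytosines, was at 1.75% and Hist1h3e, with 17, at 1.43%. Of the 6 H4 windows 5 were below 5%, with a median of 1.69%; Hist1h4j, with 40 cytosines, was at 0.986% and Hist1h4c, with 38, at 1.49%. Hist1h4f was at 20.3% over 6 cytosines, with 17.1, 19.3, 28.9 and 16.1% in the control and 18.9, 20.3, 19.8 and 21.7% in the arsenic samples. Of these, 3 are the cytosines upstream of Hist1h1d, at 36.2%, and the other 3 were at 4.33%. Averaged over cytosines, without the testis pair, the families were at 2.25% (H1), 3.97% (H2a), 19.3% (H2b), 1.72% (H3) and 2.34% (H4). In coding-anchored windows H2b fell to 1.26% and the range over families was 1.10 to 3.97%. The highest, H2a, includes the remote pseudogene Hist1h2al, with 23 cytosines at 17.4%, and its other windows without the testis gene were below 5%.

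No cytosine was read in 20 members: 1 H1, 5 H2a, 5 H2b, 4 H3 and 5 H4 genes. Of the 7870 cytosines in CpGs of the member windows, 750 were read. Cytosines whose surrounding 51 bases, after conversion of C to T, also occur in another histone window were read at 230 of 3808 positions (6.04%), and the others at 520 of 4062 (12.8%); this difference was not tested. Shared bases made up 100% of the CpG cytosines of Hist1h2bq, Hist1h2ao and Hist1h2ap, and all 3 were unread. Hist1h1t, with no shared sequence, was unread as well. A window that was not read says nothing about its level.

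No difference between control and arsenic was called at any member. A differentially methylated cytosine (DMC) was called by logistic regression on the read counts where q (Benjamini-Hochberg) did not exceed 0.01 and the groups were at least 10 percentage points apart. Among the 750 member cytosines, 0 were called lower in arsenic (0.323% of all cytosines were) and 0 higher (0.229% of all). Of the member cytosines, 75.5% had a mean level below 5%, against 26.5% of all cytosines. A decrease of 10 points is hardly possible there, so the shares of lower calls are not directly comparable. Without the minimum difference, 4 member cytosines were higher (0.336% of all) and 0 lower (0.489% of all). At an unadjusted p under 0.05 the same test gave 130 of 750 cytosines, or 17.3%, against 17.8% of all cytosines. This test pools the reads of each group, so its p and q do not measure the spread between pools. Limma on log2 ratios called 0 member cytosines at the same q, and 0 of all 2130064 cytosines, so this 0 is not particular to the members. At an unadjusted p under 0.05 limma gave 27 of 750, or 3.60%, against 5.11% of all. The groups did not overlap at 2 member cytosines with arsenic below (1.21% of all) and at 9 with arsenic above (0.892% of all).

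Of the 33 windows, 0 were called at an adjusted p of at most 0.05 by the F test with overdispersion, and 0% of all 27709 gene windows were. After adjustment limma also called 0 member windows and 0% of all, so a count of 0 is not particular to the members. At an unadjusted p under 0.05 there were 3 member windows (5.49% of all) with the F test and 5 with limma (5.46% of all). Both member counts include Hist1h2ak and Hist1h2bn, which are a single measurement because they hold the same cytosines. The lowest adjusted p of a member was 0.891 in the F test and 0.904 in limma. Window levels were lower in arsenic at 14 and higher at 19, between -3.93 and 2.59 points. These levels are means over cytosines, whereas the F test and limma used summed reads, and the sign differs at some windows. At Hist1h2be the difference was 0.355 points in the mean and -1.15 points in summed reads. These counts take genes over the same cytosines as separate windows. Of the pairs with identical cytosines, only Hist1h2ad and Hist1h2bf were lower and the others were higher. The counts therefore overstate the higher side and do not show a lean in either direction. The groups did not overlap at 0 windows with arsenic below (2.69% of all) and at 2 with arsenic above (1.06% of all), which share the same 13 cytosines.

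**Figure D5:**
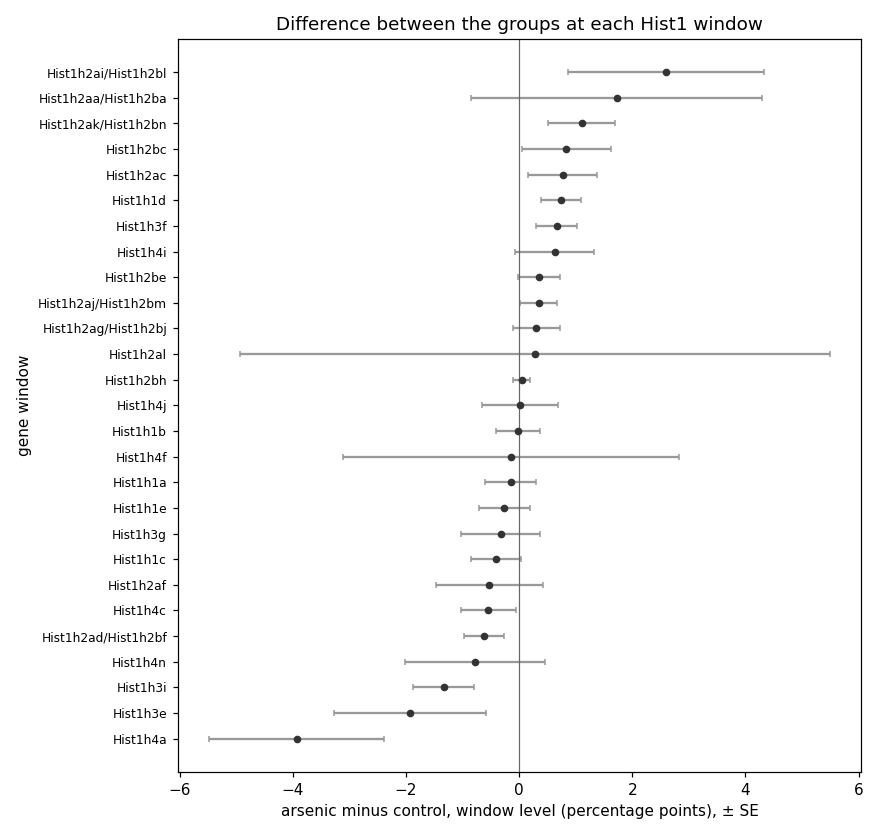
Difference in window level between arsenic and control (percentage points) for the 27 different sets of cytosines, with genes that share a set named together and bars of 1 standard error from the 4 samples of each group. The differences run from -3.93 at Hist1h4a to 2.59 at Hist1h2ai and Hist1h2bl, and 0 of the windows passed the adjusted threshold.

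Those 2 windows are Hist1h2ak and Hist1h2bn, a head-to-head pair. The control samples had 0 methylated reads of 338, 668, 308 and 130, which allows a level of up to 0.888, 0.449, 0.974 and 2.31% (3 reads of the total, for counting error only). The arsenic samples had 2 of 356, 2 of 414, 3 of 587 and 6 of 207 reads, or 0.562, 0.483, 0.511 and 2.90%. The highest of these limits, 2.31%, came from the control sample with 130 reads, and only arsenic sample 4 exceeded it. The other arsenic samples exceeded the limit of control sample 2 but not those of the other control samples. The adjusted p was 0.891 by the F test.

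Hist1h4a had the largest decrease. The control samples were at 7.32, 7.13, 3.23 and 2.08% and the arsenic samples at 0, 0, 3.28 and 0.744%, over 18 cytosines. Control samples 1 and 2 were high, and the groups overlapped at arsenic sample 3. The difference was -3.93 points, with an adjusted p of 0.891 by the F test. Hist1h3e was at 0.523, 1.29, 6.36 and 1.41% in the control and 0.735, 0.319, 0.250 and 0.540% in the arsenic samples, where control sample 3 alone stood apart. Hist1h3i, with 5 cytosines, was at 1.54, 1.82, 2.73 and 2.16% in the control and 0, 2.00, 0 and 0.909% in the arsenic samples, and the groups overlapped at arsenic sample 2.

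The largest increase was at Hist1h2bl and Hist1h2ai, a pair over the same 16 cytosines. The control samples were at 1.28, 1.10, 0.272 and 1.43% and the arsenic samples at 3.24, 8.56, 1.03 and 1.62%, and arsenic sample 2 carried most of the difference of 2.59 points. The testis pair followed with 1.73 points, from 87.9 ± 4.27% (SD, n = 4) in the control to 89.6 ± 2.87% (SD, n = 4) in the arsenic samples. In summed reads, which the F test used, the difference of the testis pair was 2.81 points. Its adjusted p was 0.923 by the F test, and the control range was wider than either difference.

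Within the pair, 3 cytosines on the plus strand of the Hist1h2ba body had all 4 arsenic samples above all control samples. At chr13:23933881, in the coding exon of Hist1h2ba, the control samples were at 93.9, 90.4, 90.7 and 88.5% and the arsenic samples at 97.8, 97.7, 96.4 and 100%. The others, at chr13:23933890 and chr13:23933908, differed by 7.75 and 5.06 points. All 3 lie in sequence shared with other histone windows and within 27 bases, so that the same fragments cover them. A further 5 non-overlapping cytosines lay in Hist1h2be, 4 higher and 1 lower, and the 4 higher ones were in the intermediate stretch. The remaining 3 lay in Hist1h3d and in the shared window of Hist1h2bh and Hist1h3f, both higher, and in the far end of Hist1h2bc, lower. At chr13:23592298, in an intron of the long Hist1h2be transcript, the control samples were at 18.97, 21.1, 12.7 and 18.5% and the arsenic samples at 21.3, 36.2, 23.6 and 27.6%. The logistic q was 0.00502 and the difference in pooled reads 9.80 points, just under the minimum, but limma's q was 0.972.

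The average over the 750 member cytosines was 13.96 ± 0.354% (SD, n = 4) in the control and 14.05 ± 0.521% (SD, n = 4) in the arsenic samples, and the groups overlapped. Over all cytosines used, every arsenic sample was below every control sample, with a mean difference of -0.311 points, and the same was seen over chromosome 13, with -0.326 points. Without the testis pair the member difference was -0.0311 points. The difference was -0.683 points over the H4 windows and 0.645 points over the H2a windows without Hist1h2aa, both with overlapping groups.

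Other histone genes were read for comparison. Of 14 replication-dependent genes of the Hist2, Hist3 and Hist4 clusters, 11 had a window, with a median of 1.47%, and 9 of the 11 were below 5%. Of 18 replication-independent variants, such as H3f3b and H2afz, 13 had a window, with a median of 3.18% and Hils1 the highest. Of 13 genes of factors that act on histone genes or their mRNAs, such as Npat, which drives histone transcription in S phase, and Slbp, which binds the stem-loop, 11 had a window, with a median of 27.0%. The windows run over whole genes of different lengths, so the medians of these lists are not directly comparable. In each of these lists 0 windows were called, as over all gene windows.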

How the data were processed

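RRBS libraries of 4 control and 4 arsenic pools were sequenced by the authors. Per the submitters' processing notes, Trim Galore 0.6.5, Bismark 0.22.3 and methylKit 1.22.0 were used, with mm10. The authors' deposited table holds counts, without normalization, of all, methylated and unmethylated reads at 2131605 cytosines, with a coverage of at least 10 in every sample; 2130064 on chromosomes 1 to 19, X and Y were used.

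Members, lists and tests were chosen with earlier results of these data known. The level of a window is the mean over its cytosines of the percentage of methylated reads. Named genes were the testis variants, the 5 highest and 3 lowest other windows, the 3 largest decreases and increases, those with a call, and the best-read members of each family. Cytosines were tested by a likelihood-ratio test on pooled counts, which equals methylKit's logistic regression without overdispersion. GENCODE vM21 gene windows with at least 5 cytosines were tested by quasi-binomial regression on summed counts with an F test (dispersion at least 1), adjusted over all 27709. Averages were not tested. Limma 3.58.1 (R 4.3.3) used log2 ratios with a pseudocount of 1. The other steps used Python 3.11.15, numpy 2.4.6, scipy 1.17.1 and pandas 2.3.3, and the tests were tested on simulated data. Replicate numbers were checked for pairing; the correlation of deviations of same-numbered samples is given with the alternatives. The samples of a group differed by more than sampling noise (chi-square per cytosine 1.98 to 2.09). Other coverage limits, weightings, window definitions and tests were tried, each sample was left out in turn, and limits on levels cover counting error only. Mapping of C3H reads to mm10 was not tested.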

Additional observations from a re-analysis of the deposited data

Results flagged for a closer look

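In 3 of 38 groups of 4 samples, 1 sample lay far from the other 3, where chance gives about 1 in 20, or 1.90 groups. That rate holds for groups not chosen by their values. Many of these genes were named for low levels or large differences in the same samples, so it is not a test here. At Hist1h2ak and Hist1h2bn, arsenic sample 4 was at 2.88% and the other arsenic samples at 0.481 to 0.549%. At Hist1h3e, control sample 3 was at 6.36% and the other control samples at 0.523 to 1.41%. At Hist1h1e, control sample 4 was at 1.92% and the other control samples at 0.303 to 0.364%.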

How the results depend on the processing

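The count of member cytosines called lower in arsenic was 0 under every alternative run, and so was the count of called member windows. The main F test and limma on summed reads called 0% of all gene windows too, so a stable 0 there is not particular to the members. Without a minimum difference 4 cytosines were called higher. Leaving out 1 sample gave 0 to 1 higher calls. The single call came without control samples 1, 2 or 4 or arsenic samples 1 or 3, each time at chr13:23592298 in Hist1h2be, and its difference in pooled reads then passed 10 points (10.1 to 11.5). Limma, overdispersion scaling and the coverage limits gave 0 member calls, and limma gave 0 over all cytosines as well. Shares over all cytosines are not given here for the other settings. The average difference over the members, 0.0907 points, became -0.398 with weighting by coverage and was -0.150 to 0.253 with 1 sample left out. The excess of the testis pair over the others, 80.3 points, became 74.9 at a coverage of at least 30, 75.6 without cytosines in shared sequence, 86.9 in the upstream 1 kb alone and 86.7 in coding-anchored windows, which were chosen after seeing the data, as was the average without the testis variants.

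With the replicate number as a block, 0 member windows and 0 member cytosines were called. The shares over all windows and cytosines are not given here for the block, so these counts say nothing particular about the members. The average of same-numbered differences, 0.0907 points, equals the unpaired one by arithmetic and checks nothing. Deviations of same-numbered samples correlated at -7.81e-05 to 0.00178, inside the range of differently numbered samples, -0.00234 to 0.00245. No pairing by number was seen in this check. Counting noise at single cytosines limits it, so that it cannot exclude pairing. Single cytosines near the minimum coverage of 10 reads move by several points with each read, and head-to-head pairs share their cytosines.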
